A study of Mus musculus with 8 samples.

Results

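The supraorbital mesenchyme (SOM), the loose tissue above the eye, and the early migrating mesenchyme (EMM) of the mouse head were compared for 10 genes of the matricellular and adhesive matrix: Fn1, Vcan, Tnc, Tnn, Postn, Tgfbi, Sparc, Sparcl1, Thbs1 and Thbs2. The 10 genes were taken by symbol from the 23420 genes of the deposited table, and all 10 were found. All embryos were wild type C57BL/6 at E12.5, with no transgene or treatment. Each group had 4 libraries, and each library came from the pooled tissue of 4 to 5 embryos, so that differences between single embryos are not seen. The surface ectoderm and the brain had been removed after dispase.

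Matricellular proteins are secreted into the matrix but act less as building blocks than as regulators of how cells attach, spread and receive growth factors. Fibronectin and versican form the early, pliable matrix through which mesenchyme cells move, and tenascins, periostin, SPARC proteins and thrombospondins modify it. Most of these proteins bind integrins or other surface receptors, and several bind collagen, calcium or members of the TGF-beta family. In the developing skull they are known from the periosteum, the dermis and the tissue around blood vessels.

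Of the 10 genes, 9 were lower in SOM than in EMM and 1, Postn, was higher in SOM. Values are normalized counts, read counts divided by a size factor per library, and differences are SOM minus EMM on the log2(normalized count + 1) scale, tested with limma and Benjamini-Hochberg adjustment over 14249 genes. The fold given for each gene is the ratio of mean normalized counts between the groups. The threshold was an adjusted p of 0.05, and p-values rest on the spread among these pools, which may be partly technical. Across all genes tested, 72.1% passed, 36.0% higher in SOM and 36.1% higher in EMM. The libraries of the groups did not overlap for any of the 10 genes, and 66.1% of all genes tested also had no overlap (32.9% with SOM above, 33.2% with EMM above). A log2 difference past the threshold and of at least 2-fold toward EMM was found in 4 of the 10 genes, Tnn, Thbs1, Thbs2 and Sparc, against 11.0% of all genes tested, and toward SOM in 0 of the 10, against 5.19%. The median difference of the 10 genes was -0.72, against 0.01 over all genes tested. These are levels in bulk tissue, where fewer cells of a type and less RNA per cell cannot be told apart.

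**Figure D1:**
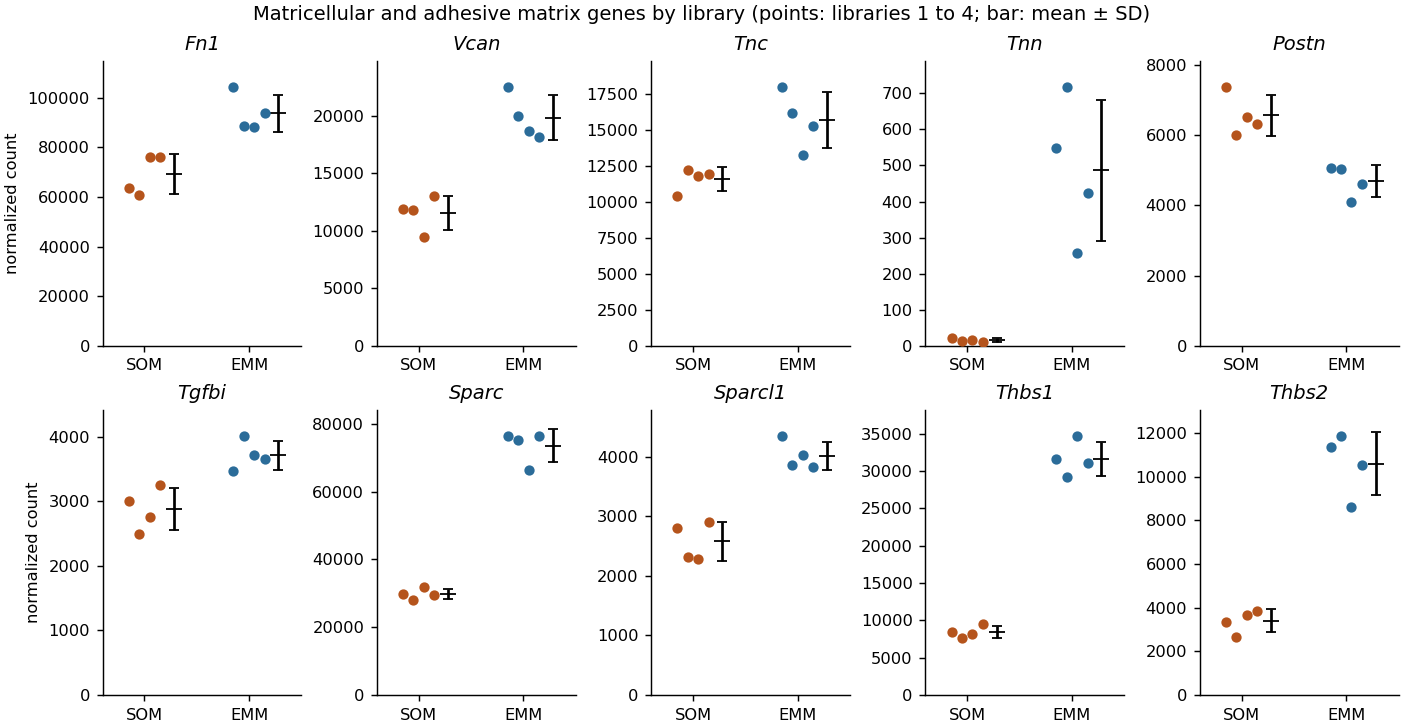
Normalized count of each of the 10 genes in each library (vertical axis from 0), with SOM left of EMM; points are replicates 1 to 4 from left to right and bars are the mean ± SD of 4 libraries. In 9 panels every SOM point lies below every EMM point, and in the Postn panel every SOM point lies above.

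**Figure D2:**
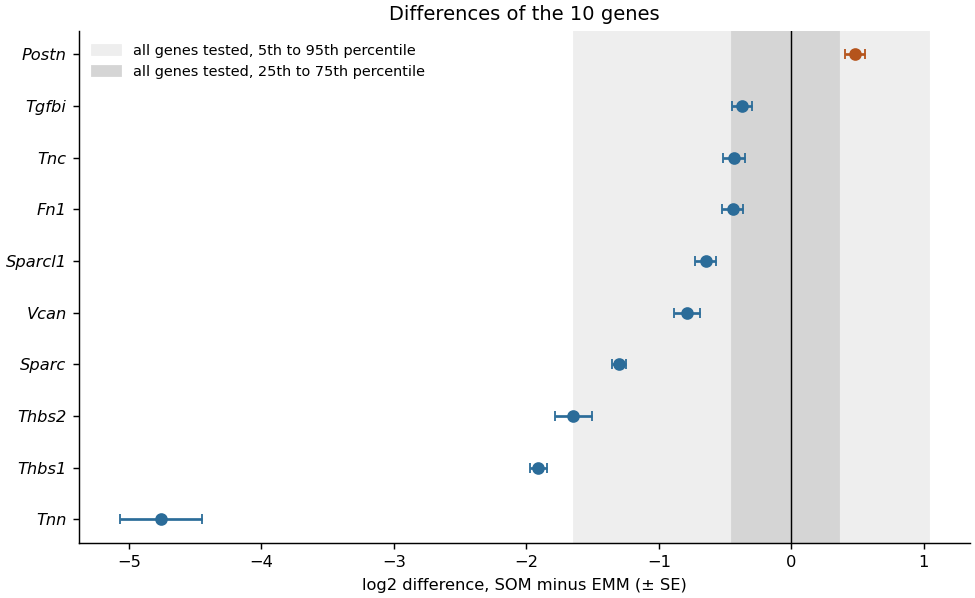
Log2 difference, SOM minus EMM, of each gene with its SE; the light band spans the 5th to the 95th percentile of all 14249 genes tested and the dark band the 25th to the 75th. Tnn lies at -4.76, Thbs1 at -1.91 and Thbs2 at -1.64, at or beyond the lower edge of the light band (-1.64), and Postn lies at 0.48.

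Reads were plentiful for 9 of the 10 genes. The recovered totals were 16.8 to 33.7 M reads in SOM libraries and 12.7 to 22.4 M in EMM libraries. All 10 genes were above the minimum of 10 normalized counts in all 8 libraries. Tnn had the fewest reads, 18, 21, 26 and 17 in SOM replicates 1 to 4, against 537, 397, 245 and 315 in EMM replicates 1 to 4. A floor of 3 reads came to at most 3.78 normalized counts in SOM libraries and at most 5.42 in EMM libraries.

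The tenascins, large secreted glycoproteins of several arms that weaken adhesion to fibronectin, had the largest and 1 of the smaller differences. Tnn encodes tenascin-W, known from the periosteum and other skeletal surroundings. Its normalized counts were 22.7, 14.7, 16.6 and 11.4 in SOM, against 549, 718, 256 and 424 in EMM. Every SOM library was at least 11.3-fold below the lowest EMM library, EMM replicate 3. Tnn was 29.8-fold lower in SOM (log2 difference -4.76, SE 0.31, limma adjusted p = 4.13e-07), and 41 of the 14249 genes tested had a larger absolute difference. Its libraries also varied the most among the 10 genes, with a coefficient of variation of 29.1% in SOM and 40.1% in EMM. Tnc encodes tenascin-C, a glycoprotein of embryonic mesenchyme and forming bone and tendon. It stood at 10371, 12229, 11792 and 11916 in SOM, against 17953, 16173, 13270.2 and 15258 in EMM. The groups were close, since EMM replicate 3 was 1.09-fold above the highest SOM library. Tnc was 1.35-fold lower in SOM (log2 difference -0.43, SE 0.08, limma adjusted p = 0.000712). On GRCm38, Tnn lies on chromosome 1 from 160085029 to 160153580 and Tnc on chromosome 4 from 63959785 to 64047015, each on the minus strand.

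The thrombospondins were the next most different. Thbs1 encodes thrombospondin-1, a trimeric glycoprotein that restrains blood vessel growth and can release active TGF-beta from its latent form. It had 8437, 7648, 8173 and 9439 normalized counts in SOM, against 31581, 29241, 34680 and 31102 in EMM. The highest SOM library lay 3.10-fold below the lowest EMM library, EMM replicate 2. Thbs1 was 3.76-fold lower in SOM, with a log2 difference of -1.91 (SE 0.06, limma adjusted p = 2.20e-12). Its relative Thbs2, which also restrains vessel growth and is known for its part in collagen fibril assembly, had 3365, 2678, 3673 and 3867 in SOM, against 11372, 11862, 8615 and 10545 in EMM. EMM replicate 3 was again the lowest of its group, 2.23-fold above the highest SOM library. Thbs2 was 3.12-fold lower in SOM, with a log2 difference of -1.64 (SE 0.14, limma adjusted p = 1.65e-05). Thbs1 lies on chromosome 2 from 118111876 to 118127133 on the plus strand, and Thbs2 on chromosome 17 from 14665500 to 14694235 on the minus strand.

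Of the SPARC proteins, Sparc differed more than Sparcl1. Sparc encodes osteonectin, a calcium-binding and collagen-binding protein of bone and many embryonic tissues. It had 29699.7, 28099, 31834 and 29656 in SOM, against 76349, 75219.7, 66477 and 76444 in EMM. The lowest EMM library, replicate 3, was 2.09-fold above the highest SOM library. Sparc was 2.47-fold lower in SOM, with a log2 difference of -1.30 (SE 0.05, limma adjusted p = 4.92e-12). Sparcl1 encodes hevin, a related protein of vessels and nervous tissue. It had 2807, 2310.5, 2282 and 2913 in SOM, against 4349, 3859, 4031 and 3830.4 in EMM. Sparcl1 was 1.56-fold lower in SOM (log2 difference -0.65, SE 0.08, limma adjusted p = 8.81e-06), and the groups lay 1.31-fold apart at their nearest libraries. Sparc lies on chromosome 11 from 55394500 to 55423183 and Sparcl1 on chromosome 5 from 104079111 to 104113733, each on the minus strand.

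Postn and Tgfbi, which encode secreted proteins built from the same repeated fasciclin-type domains, differed in opposite directions. Postn encodes periostin, named for the periosteum, which binds integrins and aids collagen crosslinking. It had 7376, 6011, 6533 and 6335 normalized counts in SOM, against 5069, 5045, 4103 and 4599 in EMM. The lowest SOM library, replicate 2, was 1.19-fold above the highest EMM library. Postn was 1.40-fold higher in SOM, with a log2 difference of 0.48 (SE 0.08, limma adjusted p = 6.41e-05). Tgfbi encodes an adhesive protein first found as a gene induced by TGF-beta. It had 3010, 2492, 2754 and 3256 in SOM, against 3467, 4007, 3715 and 3658 in EMM. These groups were the closest of the 10, 1.06-fold apart at SOM replicate 4 and EMM replicate 1. Tgfbi was 1.29-fold lower in SOM (log2 difference -0.37, SE 0.07, limma adjusted p = 0.000440), and 52.4% of all genes tested had a larger absolute difference. Postn lies on chromosome 3 from 54361109 to 54391037 and Tgfbi on chromosome 13 from 56609523 to 56639562, each on the plus strand.

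The scaffold genes Fn1 and Vcan were lower in SOM by less than 2-fold. Fn1 encodes fibronectin, whose fibrils are bound by the integrin made of Itga5 and Itgb1. It had 63639, 60831, 75930.1 and 76299 in SOM, against 104331, 88633, 88310.3 and 93716 in EMM. SOM replicates 3 and 4 were nearer to EMM than SOM replicates 1 and 2, and the groups lay 1.16-fold apart. Fn1 was 1.36-fold lower in SOM, with a log2 difference of -0.44 (SE 0.08, limma adjusted p = 0.000412). By mean normalized count, Fn1 ranked 9th of the 14249 genes tested. Vcan encodes versican, a large chondroitin sulfate proteoglycan that binds hyaluronan. It had 11872, 11841, 9453 and 12988 in SOM, against 22500.1, 19970.3, 18709 and 18193 in EMM. Vcan was 1.72-fold lower in SOM (log2 difference -0.79, SE 0.10, limma adjusted p = 4.52e-05), with a gap of 1.40-fold between the nearest libraries. Fn1 lies on chromosome 1 from 71585520 to 71653200 and Vcan on chromosome 13 from 89655312 to 89742509, each on the minus strand. In the annotation, Fn1, Tnc and Thbs1 share 292, 176 and 208 exonic bases with a gene on the opposite strand. Reads over these bases cannot be assigned to either gene if counting ignored the strand.

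Promoter sequences from RefSeq on GRCm38.p6 were at hand for 7 of the 10 genes. The 250 bases upstream of the start are shown for Postn, the gene that was higher in SOM, and for Tnn and Thbs2, which were among those with the largest differences toward EMM. The Postn window is chr3:54360857-54361106 on the plus strand and ends at the downstream of 2 annotated starts. The Tnn window is chr1:160153576-160153825 and the Thbs2 window chr17:14694263-14694512, both on the minus strand. Capitals mark matches, on either strand, to the core of the TATA box (TATAAA), the GC box (GGGCGG), the CCAAT box, the AP-1 site (TGANTCA) or the CArG box, and no matches overlapped.
Postn: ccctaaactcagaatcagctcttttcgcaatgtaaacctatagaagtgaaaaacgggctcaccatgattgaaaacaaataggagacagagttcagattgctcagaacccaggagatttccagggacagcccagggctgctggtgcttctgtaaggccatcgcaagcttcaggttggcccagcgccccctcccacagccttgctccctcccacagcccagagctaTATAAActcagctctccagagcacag
Tnn: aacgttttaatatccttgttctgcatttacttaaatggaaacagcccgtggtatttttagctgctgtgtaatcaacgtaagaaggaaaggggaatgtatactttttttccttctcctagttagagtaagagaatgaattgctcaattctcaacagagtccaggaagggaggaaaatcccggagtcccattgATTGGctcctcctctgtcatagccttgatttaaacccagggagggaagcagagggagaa
Thbs2: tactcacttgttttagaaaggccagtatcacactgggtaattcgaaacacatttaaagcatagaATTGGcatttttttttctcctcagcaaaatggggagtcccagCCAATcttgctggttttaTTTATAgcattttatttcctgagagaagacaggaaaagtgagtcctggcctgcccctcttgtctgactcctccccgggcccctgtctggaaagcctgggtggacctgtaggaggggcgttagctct
The Postn window held TATAAA from position -26 to -21 before the start. The window of the other Postn start, chr3:54359017-54359266, is not shown and held no match to any of these motifs. The Thbs2 window held it in reverse at -126 to -121, with CCAAT at -144 to -140 and its reverse at -186 to -182. The Tnn window held only the reverse of CCAAT, at -59 to -55. Over 32851 promoters of the same length, TATAAA was found in 12.4%, CCAAT in 33.8%, GGGCGG in 32.7%, TGANTCA in 6.75% and the CArG box in 1.47%. These matches describe the letters and say nothing of binding.

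Ratios of normalized counts between related genes in the same library do not depend on library scaling. The log2 ratios were taken after adding 1 to each count, so for them this holds only nearly. For Tgfbi over Postn, the ratio of normalized counts was 0.408, 0.415, 0.422 and 0.514 in SOM, against 0.684, 0.794, 0.905 and 0.795 in EMM. The mean log2 ratio was -1.19 ± 0.16 in SOM and -0.34 ± 0.17 in EMM (SD, n = 4 each; exact two-sided permutation test p = 0.0286, adjusted p = 0.0381 over 4 pairs). For Sparc over Sparcl1, the ratio was 10.6, 12.2, 13.9 and 10.2 in SOM, against 17.6, 19.5, 16.5 and 20.0 in EMM, with mean log2 ratios of 3.54 ± 0.21 in SOM and 4.19 ± 0.13 in EMM (SD, n = 4 each; exact permutation p = 0.0286, adjusted p = 0.0381). For Tnc over Tnn, the ratio was between 458 and 1050 in SOM, against 22.5 to 51.8 in EMM (exact permutation p = 0.0286, adjusted p = 0.0381, n = 4 each). The value 0.0286 is the smallest that 4 against 4 can give. In these 3 pairs the groups did not overlap, so the members of each pair differed unequally between the regions. For Tgfbi over Postn this had to follow, since the counts of each gene did not overlap and went opposite ways. For Sparc over Sparcl1 and Tnc over Tnn it also followed from the ranges of the counts. There Sparc and Tnn lay further apart between the groups than their partners' whole range could offset. The tests of these 3 pairs are therefore no separate support. For Thbs1 over Thbs2 the ratio was 2.51, 2.86, 2.23 and 2.44 in SOM, against 2.78, 2.47, 4.03 and 2.95 in EMM. These overlapped, and the test did not pass (exact permutation p = 0.171, n = 4 each). EMM replicate 3 was the highest, and the difference in mean log2 ratio, SOM minus EMM, was -0.27 with all libraries and -0.13 without it.

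**Figure D3:**
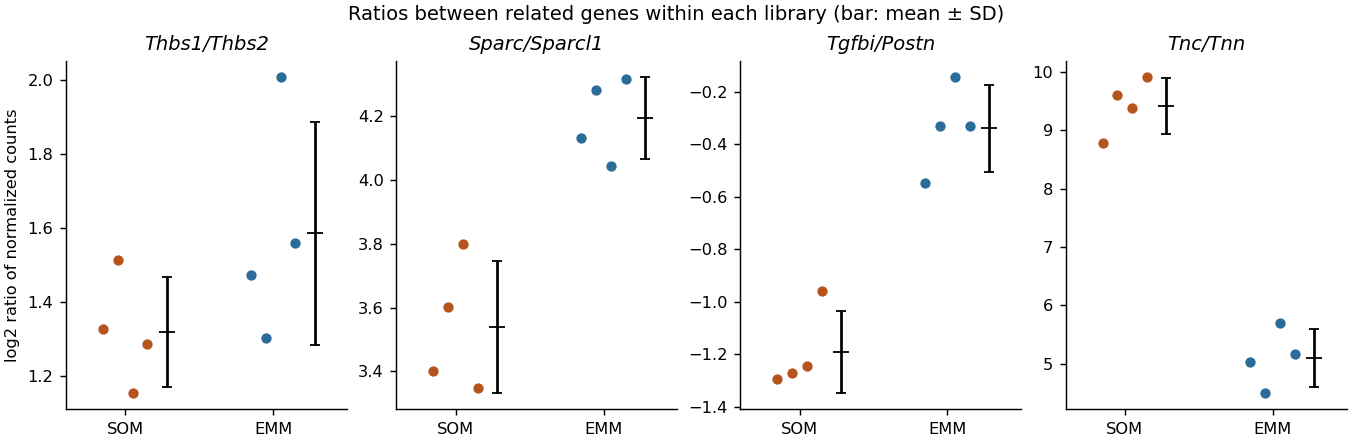
Log2 ratio of normalized counts, each with 1 added, between related genes in each library (vertical axes do not start at 0), with SOM left of EMM. Points are replicates 1 to 4 and bars are the mean ± SD of 4 libraries. The groups lie apart in the Sparc/Sparcl1, Tgfbi/Postn and Tnc/Tnn panels and overlap in the Thbs1/Thbs2 panel.

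Together the 10 genes took 0.666%, 0.637%, 0.709% and 0.727% of reads in SOM replicates 1 to 4, against 1.21%, 1.11%, 1.05% and 1.11% in EMM replicates 1 to 4. The mean share was 0.685% ± 0.041 in SOM and 1.12% ± 0.065 in EMM (SD, n = 4 each; exact two-sided permutation p = 0.0286). Fn1 and Sparc made up most of it, at 0.289% to 0.354% and 0.133% to 0.148% in SOM, against 0.384% to 0.455% and 0.289% to 0.333% in EMM. Both genes were already apart between the groups, so the test of the summed share is not separate from theirs.

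Levels were compared between genes per kb of merged exon in the GENCODE M21 annotation. Sparc was the highest in both regions, at 7873 per kb in SOM and 19436 per kb in EMM, and Fn1 followed at 5920.0 per kb in SOM and 8023 per kb in EMM. In SOM, Tnc (1490 per kb) and Thbs1 (1387 per kb) overlapped in range. Below them came Sparcl1, Vcan, Tgfbi and Postn, between 878 and 754 per kb, each overlapping the next in the order. Thbs2 followed at 485 per kb and Tnn at 2.81 per kb. In EMM, Thbs1 came next after Fn1 at 5212 per kb, apart from Tnc at 2015 per kb. Thbs2 (1513 per kb), Vcan (1372) and Sparcl1 (1368) overlapped there, and Tgfbi (984), Postn (541) and Tnn (83.7) lay apart below them. The place of Postn depends on the length used. Per kb of its longest coding transcript it stood at 2048 in SOM, next after Fn1, and at 1468 in EMM, between Vcan and Sparcl1.

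**Figure D4:**
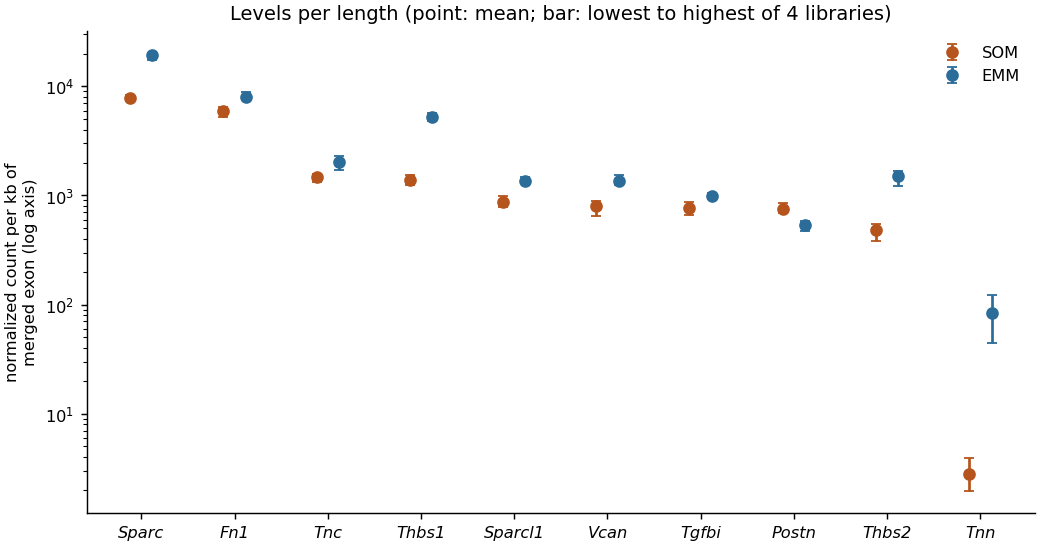
Level of each gene as normalized counts per kb of merged exon on a log axis, with SOM left of EMM for each gene; points are means and bars span the lowest to the highest of 4 libraries. Genes run from the highest to the lowest SOM level, from Sparc at 7873 to Tnn at 2.81 per kb, and in EMM Thbs1 comes next after Fn1.

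Related genes were grouped into lists that were set down with earlier results of these data known. Of 22 relatives of the 10 genes, 18 passed the filter on low values, 11 of them lower in SOM, 2 higher in SOM and 5 not past the threshold, with a median difference of -0.99. Of these 18, 61.1% were lower and 11.1% higher in SOM, against 36.1% lower and 36.0% higher in SOM among all genes tested. Wisp1, a growth-regulating CCN protein gene, had 665 ± 52.7 in SOM against 3890 ± 322 in EMM (limma adjusted p = 4.38e-14). Spock3, which encodes a SPARC-related proteoglycan, had a log2 difference of -3.16 (SE 0.11), and Spp1, which encodes osteopontin, one of -3.15 (SE 0.13). Spock1, of the same proteoglycan family as Spock3, went the other way, with 153 ± 21.0 in SOM against 7.42 ± 2.42 in EMM (limma adjusted p = 6.32e-11). Acan, the cartilage proteoglycan aggrecan and a relative of versican, had 445 ± 285 in SOM against 54.7 ± 19.4 in EMM. Its call was lost without SOM replicate 4 and EMM replicates 2 and 3 (limma adjusted p = 0.107).

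Receptors for these proteins formed the next list. Of 20 receptor genes, 19 were tested, and 15 were lower in SOM, 2 higher in SOM and 2 not past the threshold, with a median of -0.77. Of those tested, 78.9% were lower and 10.5% higher in SOM, against 36.1% and 36.0% of all genes tested. Itgb1, the beta chain shared by many integrins of the matrix, had 10199 ± 499 in SOM against 24983 ± 1154 in EMM (limma adjusted p = 1.68e-12). Itga8, an alpha chain that binds fibronectin and tenascin-C, had 715 ± 70.5 in SOM against 2019 ± 142 in EMM. Cd36, a receptor of thrombospondin-1 on vessel cells and macrophages, had a log2 difference of -2.86 (SE 0.19). Ptprz1, a phosphatase that binds tenascin-C, and Sdc4, a heparan sulfate proteoglycan that binds fibronectin, were higher in SOM by 1.76 (SE 0.22) and 0.43 (SE 0.08).

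Of 12 genes for enzymes and partners of the matrix, 7 were lower in SOM, 4 higher in SOM and 1 was not past the threshold, with a median of -0.55. The share lower in SOM was 58.3%, against 36.1% of all genes tested, and the share higher in SOM, 33.3%, was near the 36.0% of all genes tested. Among the proteases of the versican-cleaving ADAMTS family, Adamts9 and Adamts20 were higher in SOM. Adamts20 had 1301 ± 139 in SOM against 184 ± 62.7 in EMM, and Adamts9 had 2155 ± 133 in SOM against 1091 ± 104 in EMM. Adamts15 went the other way, with 1101 ± 71.6 in SOM against 5946 ± 209 in EMM (limma adjusted p = 4.01e-15), and Adamts5 had a log2 difference of -1.05 (SE 0.13). Has2, which makes the hyaluronan that versican binds, had 477 ± 61.9 in SOM against 77.8 ± 23.6 in EMM (limma adjusted p = 4.20e-08). Tgm2, a transglutaminase that crosslinks fibronectin, had 596 ± 98.3 in SOM against 2466 ± 64.4 in EMM.

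Of 15 TGF-beta genes, 11 were lower in SOM, 2 higher in SOM and 2 not past the threshold, with a median of -0.30. These are 73.3% lower and 13.3% higher in SOM, against 36.1% and 36.0% of all genes tested. With scaling to total reads, 7 were lower in SOM. The ligand gene Tgfb2 had 839 ± 72.3 in SOM against 3373 ± 266 in EMM (limma adjusted p = 4.06e-13). The receptor gene Tgfbr2 had a log2 difference of -1.01 (SE 0.07). Lrrc32, whose protein holds latent TGF-beta at the cell surface, had 526 ± 30.8 in SOM against 1056 ± 84.1 in EMM. Ltbp1, a latent TGF-beta binding protein that attaches to fibronectin matrix, was higher in SOM by 0.68 (SE 0.06), and the ligand gene Tgfb3 by 0.38 (SE 0.08).

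**Figure D5:**
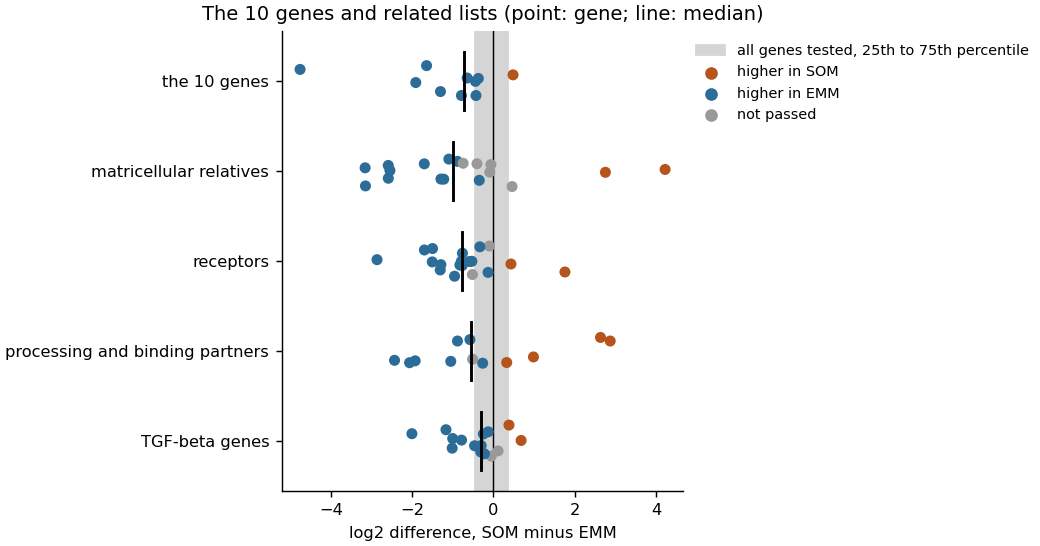
Log2 difference, SOM minus EMM, of each tested gene in the 10 genes and in 4 related lists; lines are list medians, grey points did not pass the threshold, and the band spans the 25th to the 75th percentile of all genes tested. The medians run from -0.99 for the relatives to -0.30 for the TGF-beta genes, against 0.01 over all genes tested.

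The genes whose pattern over the 8 libraries was most like each member, by the root mean square difference (RMS) of mean-centred log2 values, were found among genes with a mean of at least 100. Nearest to Sparc were Glt8d2 (RMS 0.037) and Bst2 (0.046), and nearest to Thbs1 were Etl4 (0.057) and Fzd10 (0.074). Nearest to Thbs2 were Col1a2, an alpha chain gene of type I collagen (0.11), and Unc93b1 (0.11). Vcan lay nearest to Rnf11 (0.049) and 2810407C02Rik (0.051), and Sparcl1 to Ascc3 (0.051) and Myo6 (0.060). Postn lay nearest to Mks1 (0.065) and Tmem194b (0.067), Tgfbi to Lrrc16a (0.063) and Nxpe4 (0.063), Tnc to 2410127L17Rik (0.065) and Rpe (0.070), and Fn1 to Fbxo17 (0.073) and Sh3pxd2a (0.075). No gene came as near to Tnn, whose nearest were Cdh10 (0.45) and Zpld1 (0.46). With only 2 groups, a small distance mostly reflects a like difference between them.

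Markers of other cell types also differed between the groups, with some lists mostly lower in SOM and others mostly higher. Their part in the results was not tested. The mesenchyme genes Pdgfra, Pdgfrb, Prrx1, Twist1, Twist2, Vim, Col1a1, Col1a2 and Col3a1 were all measured in both groups, with 4 higher and 5 lower in SOM. Each list can be set beside all genes tested, of which 36.0% were higher and 36.1% lower in SOM. The summed normalized counts of the mesenchyme genes were 370462 to 428567 in SOM libraries against 883998 to 1020830 in EMM libraries. Most of this came from the collagen genes Col1a1, Col1a2 and Col3a1, which had log2 differences of -1.77, -1.66 and -1.18. Macrophage markers were lower in SOM in 11 of 11 tested, with summed normalized counts of 3112 to 3552 in SOM libraries against 14417 to 18092 in EMM libraries. Pericyte and smooth muscle markers were lower in SOM in 8 of 9 and higher in 1, at 8528 to 10421 in SOM against 57465 to 64944 in EMM. The 1 higher in SOM was Cspg4, which averaged 800 in SOM and 629 in EMM. Most of the EMM sum came from Acta2, which averaged 2167 in SOM and 38221 in EMM. Endothelial markers were lower in SOM in 7 of 10 and higher in 1, at 14522 to 17164 in SOM against 19578 to 25090.4 in EMM. Meninges markers were lower in SOM in 5 of 7, at 5516 to 6462 in SOM against 20203.5 to 21727 in EMM. Red blood cell and platelet markers were lower in SOM in 4 of 7, at 54679 to 69231 in SOM against 107135 to 257473 in EMM. Most of that sum came from the globin gene Hbb-y, which averaged 61031 in SOM and 165816 in EMM. Of the platelet genes, Pf4 was lower in SOM, and Itga2b, Gp9 and Ppbp did not pass. Glia and melanoblast markers were higher in SOM in 7 of 9 and lower in 2, at 1144 to 1317 in SOM against 323 to 356 in EMM. Of the osteoblast markers, 5 of 7 were higher in SOM and 2 lower, and of the cartilage markers 4 of 6 were higher and 1 lower. The summed osteoblast list was lower in SOM, at 98310.2 to 130648 in SOM against 331304 to 390386 in EMM, with Col1a1 in it, and the summed cartilage list was 31752 to 53460 in SOM against 30917 to 32192 in EMM. Surface ectoderm markers were lower in SOM in 3 of 8 (37.5%, near the 36.1% of all genes tested), Krt8, Cdh1 and Cdh3. Their sum was 1589 to 2058 in SOM against 4183 to 4617 in EMM, most of it from Cdh3, which averaged 1488 in SOM and 3515 in EMM. Krt5, Krt14, Krt18, Epcam and Trp63 did not pass. Skeletal muscle markers were lower in SOM in 3 of 4, Myh8, Actc1 and Ttn, at 64.2 to 95.2 in SOM against 300.03 to 553 in EMM. Most of the EMM sum came from Myh8, which averaged 39.7 in SOM and 361 in EMM, and Myh3 did not pass. Myog and Myod1 were below the filter and went the other way. Myog averaged 7.13 in SOM and 0.256 in EMM, and Myod1 averaged 1.16 in SOM and 0 in EMM. Brain markers were lower in SOM in 2 of 3 and higher in 1, at 758 to 997 in SOM against 121 to 396 in EMM. Hba-a1, Hba-a2 and Myf5 were listed at 0 in all 8 libraries.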

How the data were processed

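RNA was measured by sequencing in 8 libraries, 4 of SOM and 4 of EMM, each a pool of 4 to 5 embryos. Per the submitters' processing notes, bcl2fastq, STAR and DESeq2 were used, without versions, with the mm10 build. No source used here gives the annotation, the read counter or the use of strand. The signal that the authors deposited for each gene and library is a normalized count: reads over a library size factor, judged from the values and the file headers. They also deposited a log2 fold change (EMM over SOM) with its standard error, a Wald score, and p-values per gene. Dividing each library by its smallest nonzero value gave whole numbers for 100% of genes, within 1 ppm, and these were taken as reads.

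Genes with at least 10 normalized counts in at least 4 libraries, 14249 in all, were fitted as log2(normalized count + 1) in limma (version 3.58.1, R 4.3.3), using a trend and robust moderation but no covariate. This scale understates the change of low genes. The fit was tested on simulated data, and the permutation functions on small fixed cases with a known p. Ratios and shares used exact permutation tests (scipy 1.17.1). Without molecular identifiers, a floor of 3 reads covers only the error of counting.

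The 10 genes and the lists were chosen with earlier results of these data known, and limma p-values were adjusted over all genes tested. Those of the ratios were adjusted over the 4 pairs, and that of the summed share was not adjusted. From each list, the text names the genes past the threshold with the smallest adjusted p, at most 3 that rose and 3 that fell. Alternatives changed the pseudocount, the filter, the scaling, the tool (edgeR 4.0.16, DESeq2 1.42.0 on recovered reads), the libraries and the block. Libraries of a group differed by more than sampling noise (chi-square per degree of freedom 3.76 to 19.4). Nothing in the labels says whether SOM and EMM pools came from the same embryos. Gene positions and lengths came from GENCODE M21 on GRCm38, the assembly that mm10 names.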

Additional observations from a re-analysis of the deposited data

Results flagged for a closer look

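The groups of 4 libraries were examined for a library that stood far from the other 3, over the 10 genes, the 4 ratios and the summed share, which made 30 groups. Chance flags about 1 in 20 groups, and 2 of the 30 were flagged. Sparc stood at 66477 normalized counts in EMM replicate 3, below the other EMM libraries, and without this library its log2 difference was -1.35, against -1.30 with all libraries. The log2 ratio of Tgfbi to Postn was -0.96 in SOM replicate 4, above the other SOM libraries, and without this library the difference in the ratio between SOM and EMM was -0.93, against -0.85 with all libraries.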

How the results depend on the processing

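All 10 differences kept their direction and stayed past the threshold in all 18 alternatives, the highest adjusted p being 0.00562, for Tnc with scaling to total reads. The counts of 9 lower and 1 higher in SOM were the same in all of them, edgeR, DESeq2, the replicate block and each library left out included. Scaling to total reads, added after the data were seen, moved the median of all genes by 0.11 on the log2 scale, and relative to that median Tgfbi stood at -0.38 and Postn at 0.47. With it, 7 of the 15 TGF-beta genes were lower in SOM. Without SOM replicate 4 and EMM replicates 2 and 3, also added later, 0 relatives of the 10 genes were higher in SOM by limma, since Spock1 fell under the filter and Acan did not pass (also 0 at an unadjusted p under 0.05), against 2 in edgeR and in DESeq2 with all libraries. The same-numbered SOM and EMM libraries had correlations of their deviations between -0.02 and 0.13, with 1 of 4 over 0.1, so the numbers were not taken to pair the samples, and the replicate block left the differences at 4.33 for Tnc/Tnn, -0.66 for Sparc/Sparcl1, -0.85 for Tgfbi/Postn and -0.44 percentage points for the summed share, with an exact p of 0.125, the smallest that 4 pairs can give. With each library left out in turn, these differences ran from 4.13 to 4.54, from -0.74 to -0.59, from -0.93 to -0.79 and from -0.46 to -0.41, with an exact p of 0.0571, the smallest that 3 against 4 can give. Depth limits Tnn in SOM, where 82 reads were counted in all.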

Other observations

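Single libraries tended to be the extremes of their group for several of the 10 genes at once. EMM replicate 3 was the lowest EMM library for Fn1, Tnc, Tnn, Postn, Sparc and Thbs2, and the highest for Thbs1. SOM replicate 2 was the lowest SOM library for Fn1, Postn, Tgfbi, Sparc, Thbs1 and Thbs2, and SOM replicate 4 was the highest for Fn1, Vcan, Tgfbi, Sparcl1, Thbs1 and Thbs2. EMM replicate 1 was the highest EMM library for Fn1, Tnc, Vcan, Postn and Sparcl1.

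In the authors' deposited table, the log2 fold change of EMM over SOM was 4.26 for Tnn, against a limma difference, SOM minus EMM, of -4.76, while that of Thbs1 was 1.90 and that of Postn was -0.48. All 10 genes had an adjusted p of at most 8.01e-06 in the authors' deposited table.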
